A study of Mus musculus with 6 samples.

Results

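The transcripts of 9 genes whose products sit at the Z-disc, the titin spring or the actin network of the muscle fibre were measured by bulk RNA-Seq in gastrocnemius-plantaris (GP) muscle. They were chosen by symbol, as the muscle ankyrin repeat genes Ankrd1, Ankrd2 and Ankrd23, the LIM-domain genes Csrp3, Fhl1, Fhl2 and Fhl3, and the Xin actin-binding repeat genes Xirp1 and Xirp2. All 9 were found among the 24421 genes listed, and all 9 were among the 14180 genes with enough counts to be tested. The study deleted Net39, an inner nuclear envelope protein of muscle, in adult mice, and the comparison asks which of these transcripts differ after the deletion. The 3 Ctrl-labelled libraries came from Net39 fl/fl mice without Cre, and the 3 cKO-labelled ones from HSACreERT2;Net39 fl/fl mice. In the latter a tamoxifen-inducible Cre is driven by the human skeletal actin promoter, so that recombination is directed to muscle fibres and not to satellite cells or the heart. Both groups carried the floxed allele and received tamoxifen. Their strain background is labelled B6C3F1, although by the study's methods the founders were mated to C57BL/6N mice, and the mice were male, 5 months of age and 3 months past tamoxifen. Each library is labelled as 1 mouse.

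The targeted gene went against the labels. Net39, listed as Ppapdc3, had 310, 321 and 217 counts in the Ctrl-labelled libraries and 5365, 4340 and 6080 counts in the cKO-labelled ones, which is 7.20 ± 1.10 against 134 ± 19.7 CPM (SD, n = 3), where CPM scales the counts to the size of the library. Net39 was therefore 18.6-fold higher where the label states its deletion. The loxP sites flank its exon 1, while the counts cover the whole gene. Every direction below is given for the labelled groups, and it turns around if the labels are exchanged.

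These genes code for proteins that couple the sarcomere to signalling. The ankyrin repeat proteins bind titin at its spring and can also enter the nucleus, the LIM-domain proteins are scaffolds at the Z-disc, at titin or on actin, and the Xin proteins bind actin filaments at the myotendinous junction and in fibres under repair. Several of them are known to be induced by stretch, overload or injury of muscle. Ankrd1 is also a textbook target of YAP and TAZ, cofactors that act through TEAD factors at MCAT elements. FHL1 mutations cause a form of Emery-Dreifuss muscular dystrophy, a disease of the nuclear envelope.

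The bases upstream of the annotated start sites show which factor motifs these genes carry, and the matches are printed because they differ between the members. RefSeq promoters (GRCm38.p6, the build of the mm10 alignment) were matched by symbol for 8 of the 9 genes, with 12 start sites in all. Xirp1 was not matched. Within the 250 bases before each start, both strands were searched for the MCAT element CATTCC bound by TEAD factors, the E-box CANNTG, the MEF2 element in its strict form (CTA, 4 bases that are each A or T, then TAG), the CArG box bound by SRF (CC, 6 bases that are each A or T, then GG), and TATAAA. Capitals mark MCAT, MEF2 and CArG matches, all lines read 5′ to 3′ on the strand of the gene, and 30 bases around a match are shown where part of the window is annotated as exon or the match is the point of interest.

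Ankrd1, MCAT match farther from the start, chr19:36120037-36120066, minus strand: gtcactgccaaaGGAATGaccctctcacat
Ankrd1, MCAT match nearer to the start, chr19:36119950-36119979, minus strand: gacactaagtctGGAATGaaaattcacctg
Fhl1, start site 1, CArG match, chrX:56779571-56779600, plus strand: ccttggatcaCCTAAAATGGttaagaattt
Fhl2, start site 1, CArG match, chr1:43196838-43196867, minus strand: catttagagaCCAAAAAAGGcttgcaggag
Fhl2, start site 2, window with a CArG match, chr1:43163962-43164211, minus strand: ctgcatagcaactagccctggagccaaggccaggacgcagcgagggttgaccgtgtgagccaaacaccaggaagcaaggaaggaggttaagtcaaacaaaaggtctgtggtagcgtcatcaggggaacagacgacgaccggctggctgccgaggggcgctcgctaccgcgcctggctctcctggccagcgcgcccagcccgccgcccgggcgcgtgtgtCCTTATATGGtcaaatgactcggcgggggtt
Csrp3, start site 1, window with none of these matches, chr7:48848052-48848301, minus strand: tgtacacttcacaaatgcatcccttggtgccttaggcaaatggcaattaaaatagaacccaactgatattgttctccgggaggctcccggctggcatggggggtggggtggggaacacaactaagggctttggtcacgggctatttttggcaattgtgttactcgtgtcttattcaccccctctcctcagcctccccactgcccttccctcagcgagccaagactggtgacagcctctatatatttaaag
Ankrd23, start site 2, MCAT match, chr1:36535842-36535871, minus strand: cccagtgggccaCATTCCcagaacggtatt
Xirp2, window with a MEF2 match, chr2:67445752-67446001, plus strand: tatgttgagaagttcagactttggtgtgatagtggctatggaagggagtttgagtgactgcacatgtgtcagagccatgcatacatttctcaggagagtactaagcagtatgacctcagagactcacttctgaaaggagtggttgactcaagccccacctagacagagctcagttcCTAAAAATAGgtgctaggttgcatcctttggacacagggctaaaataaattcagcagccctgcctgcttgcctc

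Ankrd1 was the one gene of the 8 searched with 2 MCAT matches, at 210 to 205 and 123 to 118 bases before its RefSeq start, both as the reverse complement. All 250 bases of that window lay in an exon of a longer Ankrd1 transcript of the GENCODE annotation. A CArG box was found before start site 1 of Fhl1, 102 to 93 bases upstream, and before both start sites of Fhl2, 96 to 87 and 31 to 22 bases upstream. The 1 match to the strict MEF2 form lay before Xirp2, 74 to 65 bases upstream. A looser form, searched after the data were seen, which takes C or T as the first base and A or G as the last, also matched before start site 1 of Fhl2, 31 to 22 bases upstream, and stood in 2.92% of all promoters. Neither window of Csrp3 held a MCAT, MEF2 or CArG match, and each held 4 E-boxes. Among all 32851 RefSeq mouse promoters, 12.6% held a MCAT, 1.47% a CArG box, 0.508% a strict MEF2 element, 66.2% an E-box and 12.4% a TATAAA in the same 250 bases. A match is a string of letters in a window, and binding was not measured in these data.

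Of the 9 genes, 5 passed at a Benjamini-Hochberg adjusted p under 0.05 (edgeR quasi-likelihood test), and all 5 were higher in the Ctrl-labelled libraries: Csrp3, Ankrd1, Fhl2, Xirp1 and Fhl1. All 5 also differed by more than 2-fold. Across the 14180 genes tested, 24.4% passed in either direction and 11.8% were higher in the Ctrl-labelled libraries, and 6.05% and 3.92%, respectively, did so with a fold change over 2. The share passing in either direction depends on single libraries, at 10.97% without the first Ctrl-labelled library, 12.6% without the second, 12.4% without the first labelled cKO and 10.8% without the third, where 4, 4, 5 and 5 of the 9 genes passed, and it was 13.4% with the mouse number as a block. None of the 9 passed with a higher level in the cKO-labelled libraries, where 12.6% of all genes did. The median log2 fold change, labelled cKO over labelled Ctrl, was -1.77 over the 9 genes and -0.02 over all genes tested. Values of the labelled groups did not overlap for 7 of the 9 genes, 6 of them higher in the Ctrl-labelled libraries and 1 higher in the cKO-labelled ones, beside 43.9%, 21.9% and 22.0% of all genes tested. In whole muscle, fewer fibres of a type and less RNA per fibre cannot be told apart.

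**Figure D1:**
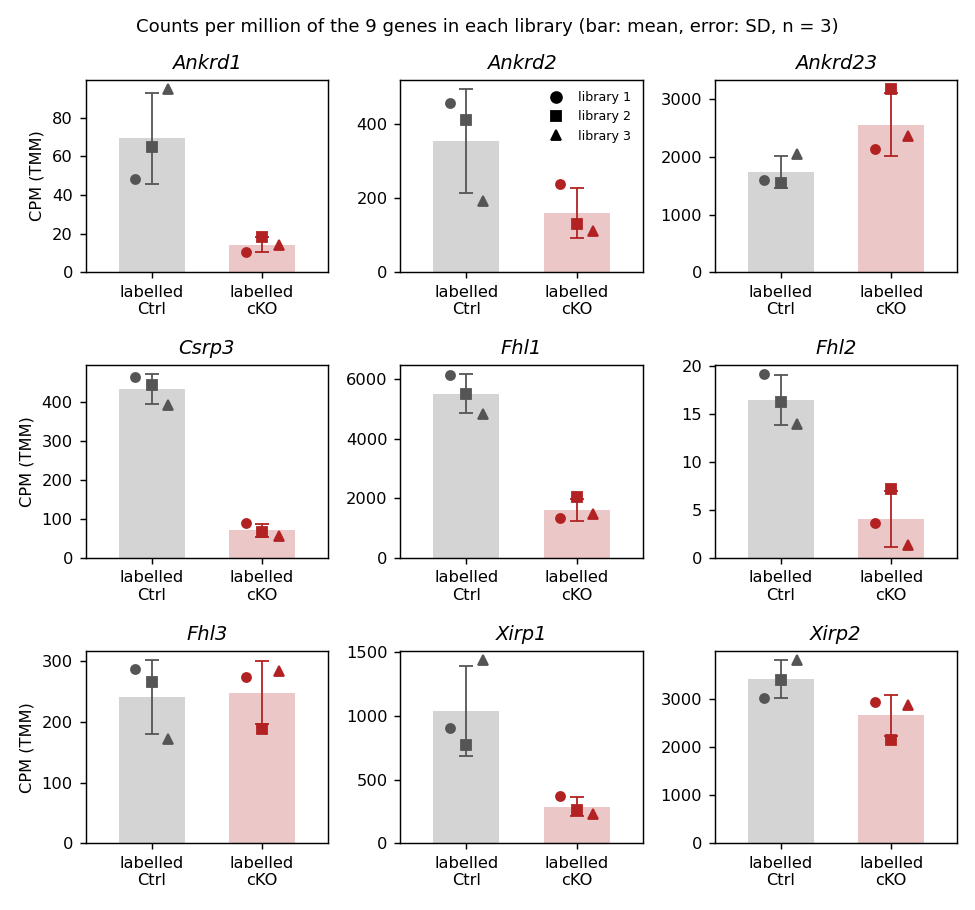
CPM (scaled with TMM factors, y axis from 0) of each of the 9 genes in the 3 Ctrl-labelled libraries (grey) and the 3 labelled cKO (red), with bars for the group mean, error bars for the SD and 1 symbol per library. The groups stand far apart for Ankrd1, Csrp3, Fhl1, Fhl2 and Xirp1, narrowly apart for Ankrd23 and Xirp2, and overlap for Ankrd2 and Fhl3.

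Ankrd1 codes for the cardiac ankyrin repeat protein, which binds titin and acts on transcription in the nucleus. It had 48.5, 64.8 and 95.0 CPM in the Ctrl-labelled libraries and 10.3, 18.1 and 14.2 CPM in the cKO-labelled ones. The lowest Ctrl-labelled library was far above the highest labelled cKO. Its level was 69.4 ± 23.6 against 14.2 ± 3.90 CPM (SD, n = 3), 4.88-fold higher in the Ctrl-labelled libraries, with a log2 fold change of -2.29 ± 0.29 (SE) and an adjusted p of 0.00369 (edgeR).

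Ankrd2, whose product binds the same region of titin and is enriched in slow fibres, differed less clearly. It had 455, 410.3 and 192 CPM in the Ctrl-labelled libraries and 237, 130.5 and 111 CPM in the cKO-labelled ones. The third Ctrl-labelled library lay among the cKO-labelled ones. Its log2 fold change was -1.14 ± 0.39 (SE) with an adjusted p of 0.0704 (edgeR), and it passed without the third Ctrl-labelled library (-1.44, adjusted p = 0.0247) or without the first labelled cKO (-1.56, adjusted p = 0.0486).

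Ankrd23, the third titin-binding member of this family, was the only one of the 9 genes whose cKO-labelled libraries all lay above the Ctrl-labelled ones. Its values were 1598, 1547 and 2049.8 CPM in the Ctrl-labelled libraries and 2132, 3176 and 2357 CPM in the cKO-labelled ones. The gap was narrow, between the third Ctrl-labelled library and the first labelled cKO. Ankrd23 had a log2 fold change of 0.56 ± 0.19 (SE) with an adjusted p of 0.0681 (edgeR), and it passed without the third Ctrl-labelled library (0.70, adjusted p = 0.043). Of its annotated exon bases, 78.2% are shared with Gm42417 on the same strand, a gene that the count files do not list, so the counts of Ankrd23 may hold reads from both genes, and the origin of reads on the shared bases cannot be told apart.

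Csrp3 codes for muscle LIM protein, a Z-disc protein of slow and cardiac muscle, and showed the largest difference of the 9 genes. It had 465, 443 and 392 CPM in the Ctrl-labelled libraries and 89.2, 65.4 and 56.8 CPM in the cKO-labelled ones. Replicates were close together and the groups were far apart. The level was 434 ± 37.4 against 70.5 ± 16.8 CPM (SD, n = 3), 6.15-fold higher in the Ctrl-labelled libraries, with a log2 fold change of -2.62 ± 0.18 (SE) and an adjusted p of 0.000627 (edgeR).

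Fhl1 codes for a LIM-only scaffold that binds titin and is highly expressed in skeletal muscle. Its mean CPM, not corrected for length, ranked 30 among all genes tested. It had 6159, 5512 and 4849.9 CPM in the Ctrl-labelled libraries and 1355, 2036 and 1461 CPM in the cKO-labelled ones, with no overlap. The log2 fold change was -1.77 ± 0.19 (SE), with an adjusted p of 0.00261 (edgeR).

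Fhl2, the LIM-only protein best known from the heart, ranked 7991 by mean CPM. It had 19.1, 16.2 and 13.9 CPM in the Ctrl-labelled libraries and 3.58, 7.17 and 1.39 CPM in the cKO-labelled ones, from 61 to 276 counts per library in the latter. The groups did not overlap, but the cKO-labelled libraries differed 5.17-fold among themselves, the widest spread of the 9 genes. The log2 fold change was -2.03 ± 0.49 (SE) with an adjusted p of 0.0256 (edgeR). That call was lost without the first Ctrl-labelled library (adjusted p = 0.0811), the second labelled Ctrl (0.0669) or the first labelled cKO (0.0881), and the log2 fold change was -2.76 without the second labelled cKO.

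Fhl3, a LIM-only protein that binds actin, had 286, 265 and 172 CPM in the Ctrl-labelled libraries and 274, 188 and 283 CPM in the cKO-labelled ones. The groups overlapped throughout. Fhl3 had a log2 fold change of 0.04 ± 0.23 (SE), with an adjusted p of 0.910 (edgeR).

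Xirp1 codes for Xin, an actin-binding protein that appears in damaged and regenerating fibres. It had 909, 775 and 1439.7 CPM in the Ctrl-labelled libraries and 371, 263 and 233 CPM in the cKO-labelled ones. The groups did not overlap, with the third Ctrl-labelled library far above the rest. The level was 1041 ± 352 against 289 ± 72.7 CPM (SD, n = 3), 3.60-fold higher in the Ctrl-labelled libraries, with a log2 fold change of -1.85 ± 0.27 (SE) and an adjusted p of 0.00566 (edgeR).

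Xirp2, the larger Xin-repeat protein and a known MEF2 target, differed less. It had 3018, 3392 and 3797 CPM in the Ctrl-labelled libraries and 2927, 2152 and 2871 CPM in the cKO-labelled ones. The groups did not overlap, but the lowest labelled Ctrl and the highest labelled cKO were close. The log2 fold change was -0.36 ± 0.16 (SE), with an adjusted p of 0.144 (edgeR).

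**Figure D2:**
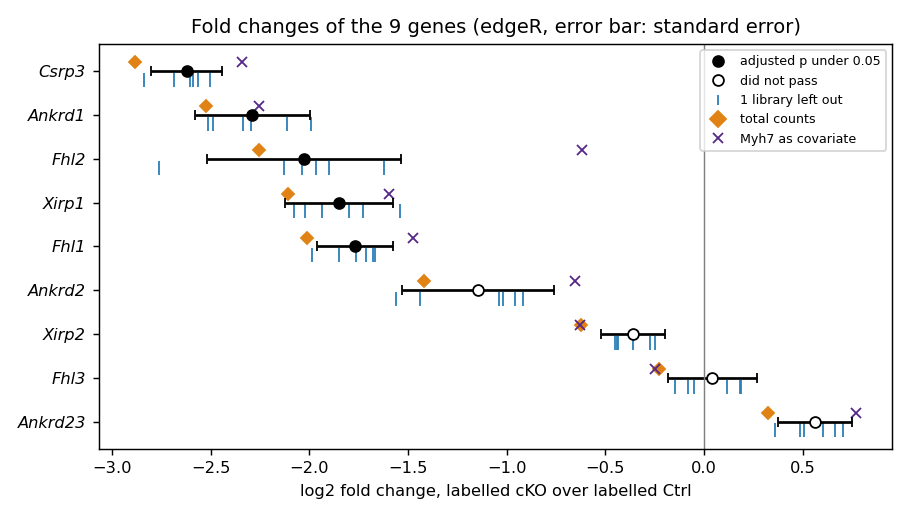
Log2 fold change of each gene, labelled cKO over labelled Ctrl (x axis), with its standard error; filled points passed at an adjusted p under 0.05, blue ticks leave out 1 library each, diamonds scale by total counts, and crosses add Myh7 as a covariate. The 5 filled points lie between -2.62 and -1.77, and the cross of Fhl2, at -0.62, lies farthest from its main value.

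Scaling moved the whole distribution. The cKO-labelled libraries had more counts (39191239 to 48839910) than the Ctrl-labelled ones (33860001 to 38201728). Scaling by total counts and scaling with TMM factors both correct for this depth. The TMM factors were 0.865 to 0.983 in the cKO-labelled libraries and 1.08 to 1.11 in the Ctrl-labelled ones. When total counts replaced the TMM factors, the median over all genes went to -0.27 on the log2 scale, and the share of passing genes that were higher in the cKO-labelled libraries went from 51.7% to 14.2%. Under that scaling all 5 genes still passed, Ankrd2 (-1.42, adjusted p = 0.0266) and Xirp2 (-0.62, adjusted p = 0.0119) passed as well, beside 33.5% of all genes tested in either direction and 28.7% with the higher level in the Ctrl-labelled libraries, and Fhl3 turned its direction (-0.23), which is close to the shift of the median.

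Exact two-sided permutation tests over the libraries gave p = 0.1, the smallest that 3 against 3 allow, for the 7 genes without overlap, 0.2 for Ankrd2 and 0.7 for Fhl3.

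Members of 1 family can be set against each other within a library, where the scaling cancels. The ratio of Xirp1 to Xirp2 counts was 0.301, 0.228 and 0.379 in the Ctrl-labelled libraries and 0.127, 0.122 and 0.0812 in the cKO-labelled ones. The ratio of Ankrd1 to Ankrd23 was 0.0304, 0.0419 and 0.0463 against 0.00484, 0.00571 and 0.00601. The ratio of Fhl1 to Fhl3 was 21.5, 20.8 and 28.2 against 4.95, 10.8 and 5.16. In each of these 3 pairs every cKO-labelled library lay below every Ctrl-labelled library, so the first gene of the pair was lower relative to the second there. The same held for Fhl2 over Fhl3. Mean log2 ratios, labelled cKO minus labelled Ctrl, were -1.46 for Xirp1 over Xirp2, -2.82 for Ankrd1 over Ankrd23, -1.84 for Fhl1 over Fhl3 and -2.36 for Fhl2 over Fhl3. The last was -1.63 without the third cKO-labelled library and -3.11 without the second. Each had an exact permutation p of 0.1 and 0.175 after adjustment over the 7 pairs compared, since 3 libraries against 3 cannot go below 0.1.

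The other 3 pairs overlapped. The ratio of Fhl1 to Fhl2 was 322, 340.4 and 348 in the Ctrl-labelled libraries, within a narrow range, and 378, 284 and 1054 in the cKO-labelled ones, where the third library stood apart. The differences in log2 ratio were 0.52 for Fhl1 over Fhl2 (exact p = 0.7), -1.14 for Ankrd1 over Ankrd2 (exact p = 0.4) and -1.68 for Ankrd2 over Ankrd23 (exact p = 0.2), with adjusted values of 0.7, 0.467 and 0.28. Ankrd1 over Ankrd2 was -0.50 without the third Ctrl-labelled library and -1.61 without the first.

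**Figure D3:**
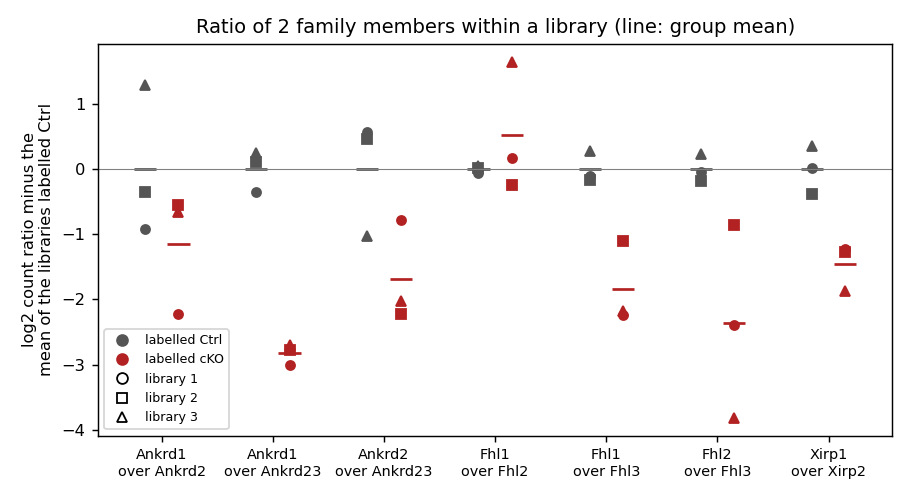
Log2 ratio of the counts of 2 members of the same family in each library, minus the mean of the Ctrl-labelled libraries (y axis), for the 7 pairs; symbols are libraries and lines are group means. The red points lie below all grey points for Ankrd1 over Ankrd23, Fhl1 over Fhl3, Fhl2 over Fhl3 and Xirp1 over Xirp2, and overlap them for the other 3 pairs.

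Per kilobase of annotated exon, Fhl1 was the most abundant in the Ctrl-labelled libraries (1483 ± 176 CPM per kb, SD, n = 3), followed by Ankrd23 (642 ± 103), Ankrd2 (309.8 ± 124), Xirp2 (284 ± 32.5), Xirp1 (178 ± 60.2), Csrp3 (162 ± 14.0), Fhl3 (143 ± 36.0), Ankrd1 (24.1 ± 8.17) and Fhl2 (8.65 ± 1.36). The ranges of Ankrd2 and Xirp2, of Xirp1 and Csrp3, and of Csrp3 and Fhl3 overlapped, as did those of Ankrd2 with Xirp1, Csrp3 and Fhl3 and of Xirp1 with Fhl3. In the cKO-labelled libraries the order began with Ankrd23 (947 ± 204 CPM per kb), above Fhl1 (435 ± 98.8), and went on with Xirp2 (221 ± 36.1), Fhl3 (148 ± 31.2), Ankrd2 (140.2 ± 59.9), Xirp1 (49.5 ± 12.4), Csrp3 (26.4 ± 6.28), Ankrd1 (4.92 ± 1.35) and Fhl2 (2.13 ± 1.54). There the ranges of Ankrd2 overlapped with those of Xirp2 and Fhl3, and the range of Ankrd1 with that of Fhl2. Fhl1 supplied 89.9% to 92.2% of the summed per-length level of the 3 Fhl genes in the Ctrl-labelled libraries and 68.9% to 82.6% in the cKO-labelled ones, and Fhl3 supplied 7.23% to 9.54% and 16.8% to 30.7%. Xirp2 made up 56.2% to 68.1% of the Xin pair in the Ctrl-labelled libraries and 79.4% to 85.7% in the cKO-labelled ones. The 9 genes together held between 0.739% and 1.30% of all CPM in a library.

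In the GENCODE M21 annotation of GRCm38, the build of mm10, Ankrd1 (ENSMUSG00000024803.9) lies at chr19:36111961-36120099 on the minus strand and Ankrd2 (ENSMUSG00000025172.3) at chr19:42036000-42045110 on the plus strand of the same chromosome. Ankrd23 (ENSMUSG00000067653.12) lies at chr1:36530188-36536883 and Fhl2 (ENSMUSG00000008136.14) at chr1:43123074-43196984, both on the minus strand. Csrp3 (ENSMUSG00000030470.15) lies at chr7:48830398-48848033 on the minus strand, Fhl1 (ENSMUSG00000023092.16) at chrX:56731787-56793346 on the plus strand and Fhl3 (ENSMUSG00000032643.12) at chr4:124700701-124708611 on the plus strand. Xirp1 (ENSMUSG00000079243.3) lies at chr9:120013755-120023598 on the minus strand and Xirp2 (ENSMUSG00000027022.13) at chr2:67446002-67526614 on the plus strand. Xirp1 has 3 exons in its longest coding transcript, while Xirp2 has 9. Apart from Ankrd23, only Xirp2 shares exon bases with another gene, 1.40% of them with Gm13601 on the opposite strand.

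Fibre type moved with the labels, and several of the 9 genes are known from slow fibres. Myh7, the slow myosin heavy chain, had 3676, 1723 and 2219 CPM in the Ctrl-labelled libraries and 494, 974 and 75.3 CPM in the cKO-labelled ones. Its log2 fold change was -2.30 ± 0.79 (SE) with an adjusted p of 0.0742 (edgeR). The groups did not overlap, and the cKO-labelled libraries differed 12.9-fold among themselves. The summed level of 8 slow-fibre markers was 8481 to 14598 CPM in the Ctrl-labelled libraries and 446 to 3873 CPM in the cKO-labelled ones, with 3 of the 8 passing and none higher in the cKO-labelled libraries. All 8 markers of type IIb fibres passed with higher levels in the cKO-labelled libraries, from 56429 to 95759 CPM in sum in the Ctrl-labelled ones to between 149624 and 192746 CPM, led by Myh4. Both type IIa and IIx myosins, Myh2 and Myh1, were higher in the Ctrl-labelled libraries, 12928 to 21450.0 against 7506 to 9647 CPM in sum. Of all genes tested, 11.8% passed with a higher level in the Ctrl-labelled libraries and 12.6% with a higher level in the cKO-labelled ones.

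Among the cKO-labelled libraries Myh7 was highest in the second and lowest in the third. Fhl2 had the same order, Fhl1 and Ankrd1 were also highest in the second but lowest in the first, and Csrp3, Ankrd2 and Xirp1 were highest in the first. The highest of the 3 cKO-labelled libraries was 1.57 times the lowest for Csrp3, 1.50 times for Fhl1, 1.75 times for Ankrd1 and 1.59 times for Xirp1, next to 12.9 times for Myh7. When the log2 CPM of Myh7 entered the edgeR fit as a covariate, 1 of the 9 genes passed, and 54 of all genes passed with a fold change over 2 where 858 had without it. The log2 fold change was then -2.34 ± 0.28 (SE) for Csrp3 (adjusted p = 0.0444), -2.25 ± 0.49 for Ankrd1 (0.123), -1.60 ± 0.47 for Xirp1 (0.188), -1.47 ± 0.29 for Fhl1 (0.104) and -0.62 ± 0.28 for Fhl2 (0.325). Fibre type and the labelled genotype run together in these 6 libraries and cannot be told apart by this fit.

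**Figure D4:**
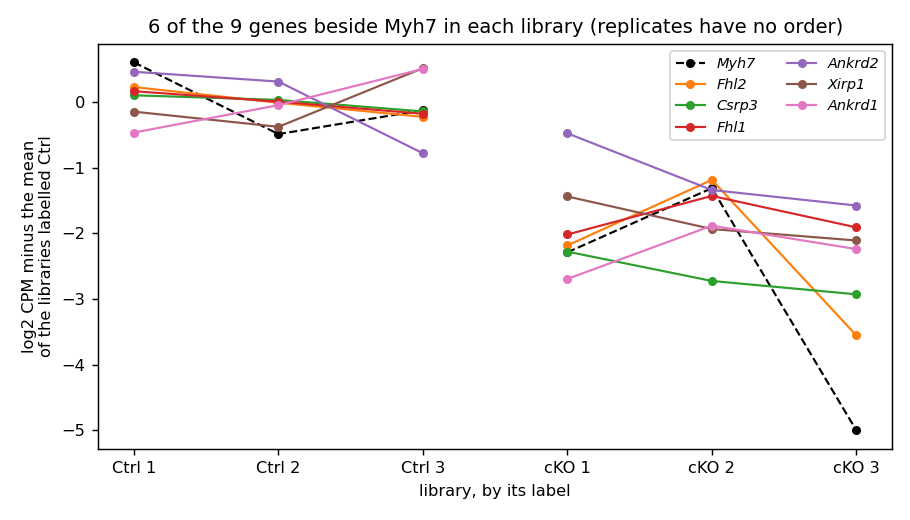
Log2 CPM minus the mean of the Ctrl-labelled libraries (y axis) for Myh7 (dashed) and for the 6 genes with a log2 fold change below -1, in each library; lines only join the libraries of a group. In the third cKO-labelled library Myh7 and Fhl2 are the lowest of the 7, while Csrp3, Fhl1, Xirp1 and Ankrd1 stay within 1.50-fold to 1.75-fold among the cKO-labelled libraries.

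Other cell types that express some of these genes were followed by marker lists. Beside their counts stand 24.4% of all genes tested passing, 11.8% higher in the Ctrl-labelled libraries and 12.6% in the cKO-labelled ones. Of 6 markers of embryonic and regenerating fibres, 3 were higher in the Ctrl-labelled libraries (Myh3, Myog and Ncam1) and 1 in the cKO-labelled ones (Myh8), with 246 to 316 against 108 to 159 CPM in sum. Myh3, the embryonic myosin, was at 159, 201 and 171 CPM against 6.21, 21.5 and 9.68 CPM. Immune markers were higher in the Ctrl-labelled libraries for 4 of 6, with 120.2 to 192 against 53.1 to 82.0 CPM in sum and Ptprc, the leukocyte antigen CD45, at 4.20 to 6.48 against 2.00 to 4.08 CPM. Of the cardiac list 4 of 6 markers were tested and none passed. Its sum was 183 to 665 against 2.95 to 77.0 CPM, mostly Myh6 (177 to 659 CPM in the Ctrl-labelled libraries) other than in the third cKO-labelled library, where Myh6 was at 0.250 CPM, while Myl7, an atrial light chain, had at most 1 count and Nppa at most 16 counts in any library.

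Markers of the myotendinous junction and tendon overlapped in sum (512 to 535 against 324 to 868 CPM), with Col22a1 at 12.9 to 20.8 against 22.4 to 39.5 CPM and 1 of 8 passing in each direction. That share is near the 11.8% and 12.6% of all genes that passed higher in the Ctrl-labelled and cKO-labelled libraries. Smooth muscle and mural markers (5556 to 6083 against 4324 to 6516 CPM, 3 of 7 higher in the Ctrl-labelled libraries, Acta2 at 78.5 to 97.4 against 53.5 to 72.7) and those of fibro-adipogenic progenitors (1063 to 1252 against 703 to 1263 CPM, 2 of 6, Pdgfra at 29.7 to 40.2 against 28.0 to 34.0) overlapped in sum too. Most of the smooth muscle sum was Des, desmin, which muscle fibres express too, and the other 6 markers, summed after the values were seen, were at 445 to 467 against 354 to 384 CPM with no overlap. Satellite-cell markers (9.35 to 9.76 against 9.18 to 11.9 CPM, 0 of 5, Pax7 at 1.97 to 2.41 against 1.91 to 2.12) and Schwann-cell markers (88.1 to 138 against 46.2 to 88.6 CPM, 0 of 5) had no passing member. Endothelial markers were at 389.5 to 404 against 353 to 381 CPM, with 1 of 6 higher in the Ctrl-labelled libraries and Pecam1 at 102 to 112 against 87.5 to 99.6. The part of these cells in the differences of the 9 genes was not tested.

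Titin and Z-disc partners, the structures on which the ankyrin, LIM and Xin proteins sit, moved in both directions. Of 22 genes tested, 10 passed, 8 of them higher in the Ctrl-labelled libraries and 2 in the cKO-labelled ones, beside 24.4%, 11.8% and 12.6% of all genes tested, with a median log2 fold change of -0.14 beside -0.02 for all genes. Myoz2, the calsarcin of slow fibres, had 791, 580.0 and 480.0 CPM in the Ctrl-labelled libraries and 123, 207 and 84.8 CPM in the cKO-labelled ones (log2 fold change -2.16 ± 0.34 SE, adjusted p = 0.007, edgeR). Myoz1, the calsarcin of fast fibres, went the other way, with 908, 1193 and 1338 against 2393, 1979 and 2366 CPM (0.97 ± 0.17, adjusted p = 0.00858). Cryab, a small heat shock protein that protects the Z-disc (-2.14), and Actn2, the alpha-actinin of all fibres (-1.40), were higher in the Ctrl-labelled libraries, and Neb, nebulin, in the cKO-labelled ones (0.56). With total counts Neb did not pass (0.31, adjusted p = 0.0748, edgeR), and of 11 passing genes 10 had the higher level in the Ctrl-labelled libraries. The list had 6 passing genes without the third cKO-labelled library.

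LIM-domain genes other than the 9 were mostly higher in the Ctrl-labelled libraries where they passed, like Csrp3 and Fhl1. Of 32 tested, 16 passed, 14 of them higher in the Ctrl-labelled libraries, beside 24.4% and 11.8% of all genes tested, and the median log2 fold change was -0.38. Ablim1, an actin-binding LIM protein, had 891, 727 and 635 CPM against 88.4, 124 and 74.0 CPM (-2.97 ± 0.23 SE, adjusted p = 0.000796, edgeR), a larger difference than that of any of the 9 genes. Lmcd1, a LIM protein that acts in calcineurin signalling, had 409.6, 419.5 and 444 against 130.4, 149 and 104 CPM (-1.73), and Crip3, a small LIM protein, had 8.33, 5.89 and 4.32 against 1.16, 1.40 and 0.795 CPM (-2.47). Pdlim7 (0.79), which binds actin at the Z-disc, and Mical2 (0.95), which oxidises actin, were higher in the cKO-labelled libraries. The count of passing LIM genes was 9 without the first Ctrl-labelled library and 10 without the second labelled Ctrl or the first labelled cKO.

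Targets of YAP and TAZ, the list to which Ankrd1 would belong, moved one way where they passed. Of 21 genes tested, 12 passed and all 12 were higher in the Ctrl-labelled libraries, beside 24.4% and 11.8% of all genes tested, with a median log2 fold change of -0.54. With Myh7 as a covariate 0 of them passed (edgeR, 8 at an unadjusted p under 0.05), beside 0.402% of all genes, and 8 did with the replicate block or without the third cKO-labelled library. Ctgf had 198, 125 and 157 CPM in the Ctrl-labelled libraries and 43.2, 59.4 and 57.1 CPM in the cKO-labelled ones (-1.59 ± 0.19 SE, adjusted p = 0.0034, edgeR). Cyr61, like Ctgf a secreted matricellular protein, had 187, 117 and 110.3 against 56.0, 50.2 and 60.6 CPM (-1.31 ± 0.21, adjusted p = 0.0068). Fjx1 was near 1 CPM in the cKO-labelled libraries (-1.89). Log2 fold changes with the Myh7 covariate were -1.50 for Ctgf, -1.33 for Cyr61 and -1.91 for Fjx1. Without the covariate they were -1.59, -1.31 and -1.89. Values of the other targets in that fit are not given here. Foxf2 was not tested.

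The Hippo pathway and TEAD cofactors, which act upstream of those targets, had 7 of 19 genes passing, 4 higher in the Ctrl-labelled libraries and 3 in the cKO-labelled ones, beside 24.4%, 11.8% and 12.6% of all genes tested, with a median of -0.06. The split rests on the scaling, since with total counts 7 genes passed and all 7 were higher in the Ctrl-labelled libraries. Tead1, the main TEAD factor of muscle, was at 279, 236 and 277 CPM against 375, 369 and 405 CPM (0.54 ± 0.10 SE, adjusted p = 0.0106, edgeR), and it did not pass with total counts (0.28, adjusted p = 0.0728). Vgll2, a skeletal muscle cofactor of TEAD, was at 232, 148 and 174 against 67.9, 99.1 and 74.1 CPM (-1.20 ± 0.20, adjusted p = 0.00819). Tead3 (-0.64) and the YAP-binding Amot (-0.49) were higher in the Ctrl-labelled libraries, and the kinase Lats1 (0.52) and the scaffold Sav1 (0.44) in the cKO-labelled ones. With total counts neither Lats1 (0.26, adjusted p = 0.141, edgeR) nor Sav1 (0.18, adjusted p = 0.126) passed. Yap1 itself, named after its values were seen, was higher in the Ctrl-labelled libraries (-0.48, adjusted p = 0.00918, edgeR). Ajuba and Lats2 stand on 2 of the lists.

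SRF and MRTF targets are known for CArG boxes, and their list also holds Srf and the MRTF genes Mkl1 and Mkl2. Of its 21 genes tested, 5 passed, a share of 23.8% beside 24.4% of all genes tested. Tpm1, tropomyosin of fast fibres and smooth muscle, was 2.54-fold higher in the cKO-labelled libraries (1.34 ± 0.16 SE, adjusted p = 0.00334, edgeR). Cnn1, calponin of smooth muscle (-1.33), Tagln2 (-0.83) and Actg1, cytoplasmic gamma-actin (-0.44), were higher in the Ctrl-labelled libraries. The count was 3 without the second Ctrl-labelled library and 8 without the second labelled cKO. With Myh7 as a covariate, 0 genes of the titin and Z-disc, Hippo and SRF lists passed (edgeR), with 7, 6 and 6 at an unadjusted p under 0.05, and 2 LIM-domain genes passed. Log2 fold changes in that fit were 1.15 for Tpm1, -1.23 for Cnn1 and -0.835 for Tagln2, against 1.34, -1.33 and -0.834 without the covariate. They were -1.27 for Myoz2, -1.54 for Cryab and -0.85 for Vgll2, against -2.16, -2.14 and -1.20.

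**Figure D5:**
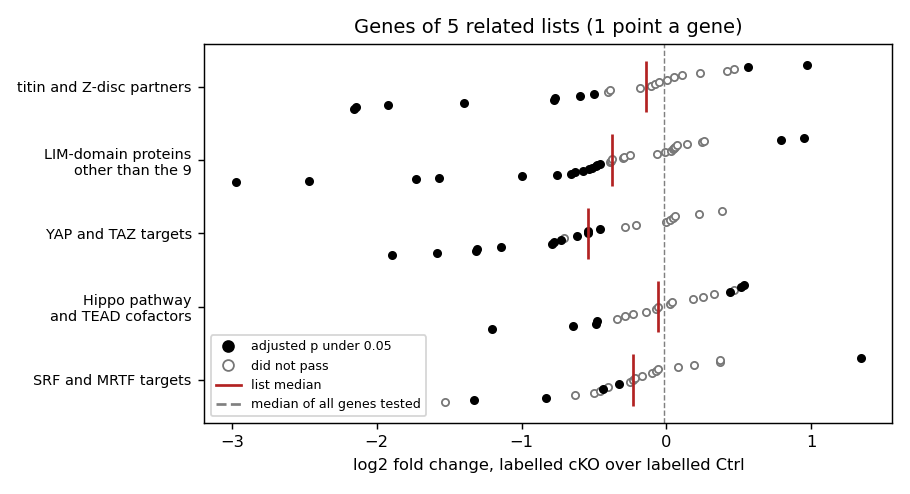
Log2 fold change, labelled cKO over labelled Ctrl (x axis), of every gene tested on the 5 lists, 1 point a gene, filled where the adjusted p was under 0.05; red lines are list medians and the dashed line is the median of all genes. Filled points of the YAP and TAZ targets all lie below 0, and those of the other 4 lists lie on both sides, although with total counts no Hippo gene passed above 0.

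For each of the 9 genes other than Ankrd2, the gene whose log2 CPM, centred on its own mean, differed least over the 6 libraries was found among 12344 genes with a mean of at least 1 CPM. Csrp3 was closest to Sox9, a transcription factor of cartilage and progenitor cells, at a root mean square difference of 0.195. Sox9 had 30.4, 22.3 and 19.96 CPM in the Ctrl-labelled libraries and 4.35, 3.53 and 3.93 CPM in the cKO-labelled ones. Xirp1 was closest to Spp1, osteopontin, at 0.201, which had 2.04, 1.79 and 2.46 against 0.847, 0.597 and 0.591 CPM. Fhl1 was closest to 2310020H05Rik at 0.0952. Fhl2 was closest to Gm5532 at 0.165, and Ankrd1 to Zc2hc1a at 0.176. Among the genes with smaller differences, Ankrd23 was closest to Sumo2 at 0.0502, Fhl3 to Usp54 at 0.0622 and Xirp2 to H2-T24 at 0.0582. Myh7 ranked 76 in likeness to Fhl2, 1073 to Csrp3, 7461 to Ankrd1, 11037 to Fhl1 and 11046 to Xirp1. With 6 libraries and 1 contrast, genes with a similar group difference lie close by this measure.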

How the data were processed

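Bulk RNA-Seq libraries of GP muscle (KAPA mRNA HyperPrep, paired-end 75 bp per the paper's methods) were analysed, 3 Ctrl-labelled and 3 cKO-labelled. The authors deposited 1 table of raw counts per library, whole numbers without normalization, made per their processing notes with FastQC 0.11.8, Trimmomatic 0.39, HISAT2 2.1.0 on mm10 and featureCounts 1.6.2. The gene annotation and strand setting are not given in the sources used here, so reads of overlapping genes on opposite strands may be mixed. Groups follow the labels, although Net39 goes against them.

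Tests across genes used edgeR 4.0.16 in R 4.3.3 (TMM, filterByExpr, quasi-likelihood F-test, Benjamini-Hochberg adjustment over 14180 of the 18918 genes with at least 1 count). The limit for a passing gene was an adjusted p below 0.05, and a second limit added more than 2-fold. Standard errors were derived from the F statistic. CPM used TMM factors. Total counts were 33860001 to 48839910. Over all genes together the spread between replicates exceeded counting error, and no 2 replicates were repeats of 1 library (chi-square over its degrees of freedom 31.3 to 107). For genes with few counts, such as Fjx1 with 38, 41 and 38 in the cKO-labelled libraries, counting error is not small. For count ratios and single genes, two-sided permutation tests over libraries were exact. The study used DESeq; DESeq2 1.42.0 was an alternative, with DESeq2 size factors or total counts in edgeR, no count filter or at least 10 counts in every library, a replicate block, a robust fit, glmTreat at 1.2-fold, Myh7 as a covariate, and each library left out. The script was tested on simulated data. Exon lengths and positions are from GENCODE M21 and promoters from RefSeq (GRCm38.p6).

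The 9 genes, 5 gene lists and 12 marker lists were chosen with earlier results of these data known. Named besides the 9, Ppapdc3 and Myh7 were the 3 genes of each list with the largest passing fold change in each direction (mean of at least 1 CPM, groups not overlapping), the first marker of a list and the gene most alike each of the 9. Markers and list members named beyond that rule were chosen after their values were seen. Some values under these rules are not reported here.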

Additional observations from a re-analysis of the deposited data

How the results depend on the processing

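Of the 9 genes, 5 passed and 5 also had a fold change over 2; over leave-one-out fits these counts were 4 to 7 and 4 to 6, where all genes gave 1560 to 3585 (3454 with all libraries) and 580 to 1035 (858). Csrp3 passed in every alternative run, and Ankrd1, Fhl1 and Xirp1 in every one but the fit with Myh7 as a covariate. That fit left 1 of the 9 genes by either limit, and 57 of all genes, 54 of them over 2-fold. It left 2 LIM-domain genes and 0 genes of the titin and Z-disc, YAP and TAZ, Hippo and SRF lists. Of these 4 lists, 7, 8, 6 and 6 genes had an unadjusted p under 0.05 (edgeR). DESeq2 gave 13, 12, 7 and 7 for the same lists without the covariate, beside 28.0% of all genes. Against a fold change of 1.2 (glmTreat), 9 LIM-domain, 3 Hippo and 3 SRF genes passed, and with total counts 9 SRF genes did. Total counts left the Hippo list at 7, but with 0 of them higher in the cKO-labelled libraries where 3 had been. Leaving out 1 library gave 6 to 12 titin and Z-disc genes, 9 to 19 LIM-domain genes, 8 to 12 YAP and TAZ targets, 5 to 7 Hippo genes and 3 to 8 SRF genes. Ankrd23 passed in DESeq2 (0.57, adjusted p = 0.0108). Fhl3 turned its direction with total counts (-0.23), with Myh7 as a covariate (-0.25) and without single libraries (-0.15, -0.081 and -0.048, in a range of -0.15 to 0.19), as did Fhl1 over Fhl2 without the third cKO-labelled library (-0.039, in a range of -0.039 to 0.91). The cause of these changes was not tested.

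Mouse numbers are shared between the groups, but same-numbered libraries did not deviate together (correlations 0.104, -0.231 and 0.0063). Not every library correlated best with its own number. The labels give no pairing, and 3 libraries per group are too few to tell whether the numbers pair the mice. With the number as a replicate block, 6 of the 9 genes passed, Ankrd2 being added (-1.13, adjusted p = 0.028), as did 1899 of all genes, 684 of them over 2-fold, and 10 LIM-domain genes where 16 had passed. Among the genes named from the lists, Neb, Lats1 and Amot lost their call in 8, 7 and 8 of 15 alternatives, Mical2 in 6, Actg1 in 4, Sav1 in 3, Tead1 in 2 and no other in more than 1. Depth limits Fhl2 most of the 9 genes, at 61 counts in its lowest library.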
